A study of Mus musculus with 9 samples.

Results

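The enteric neuron and glia genes were 9 genes that mark the nerve cells and the glia of the gut wall: Elavl4, Uchl1, Vip, Nos1, Chat and Ret for neurons, and S100b, Gfap and Sox10 for glia. They were taken by gene symbol from a colon RNA sequencing table of 45777 genes and read in all 9 libraries. Of the 9 genes, 8 were among the 18414 that passed a filter on low counts and were tested, and Chat did not pass it. The libraries came from the colon of wild-type mice kept on a 12-h light and dark cycle, 3 libraries in each of 3 groups. IM-HYA mice wore a plastic cast on the hindlimb for 10 days and ate a diet containing HYA, a name that the labels do not spell out. IM mice wore the cast for 10 days on the normal diet, and CT mice ate the normal diet and were labelled as the control. HYA was given to mice with a cast alone, so the diet was compared among immobilized mice. Replicates are numbered in the labels with nothing said of separate animals. The p-values below therefore set a difference, slope or correlation against the spread among libraries only. That spread need not be one between animals.

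The enteric nervous system is a network of neurons and glia that lies in the gut wall, in a plexus between the muscle layers and a plexus under the mucosa, and it can run motility and secretion without input from the brain. Excitatory motor neurons release acetylcholine onto smooth muscle, and inhibitory motor neurons relax it with nitric oxide and vasoactive intestinal peptide. Its cells descend from the neural crest and need the receptor RET and its ligands to colonize the bowel, and enteric glia surround the neurons and their processes. The series title names an axis between muscle, brain and gut, and the 3 groups ask whether a cast on the leg, and the HYA diet under the cast, go with a change in the colon.

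Promoter windows from RefSeq (build GRCm38.p6) were held for 7 of the 9 genes, all but Ret and Sox10. Those of Vip, Elavl4 and Uchl1 are shown because Elavl4 and Uchl1 were a correlated pair across the libraries and Vip was in no such pair. Each is printed on the strand of its gene, 5′ to 3′, up to the base before the annotated start, and capitals mark the letters TGACGT, the core of a cAMP response element, or their reverse complement ACGTCA. The Vip window (chr10:5638968-5639192, plus strand) held it 1 time, the Elavl4 window (chr4:110351940-110352161, minus strand) held it 1 time in the reverse orientation, and the Uchl1 window (chr5:66675871-66676120, plus strand) held none.
Vip: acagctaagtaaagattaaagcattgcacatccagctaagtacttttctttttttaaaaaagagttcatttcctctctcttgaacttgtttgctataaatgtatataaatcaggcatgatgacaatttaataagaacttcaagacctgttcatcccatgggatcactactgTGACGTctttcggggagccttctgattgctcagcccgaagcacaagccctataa
Elavl4: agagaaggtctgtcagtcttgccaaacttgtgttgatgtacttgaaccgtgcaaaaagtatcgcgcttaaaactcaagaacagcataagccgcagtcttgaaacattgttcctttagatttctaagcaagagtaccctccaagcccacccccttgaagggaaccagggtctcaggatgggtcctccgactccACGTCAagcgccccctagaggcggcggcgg
Uchl1: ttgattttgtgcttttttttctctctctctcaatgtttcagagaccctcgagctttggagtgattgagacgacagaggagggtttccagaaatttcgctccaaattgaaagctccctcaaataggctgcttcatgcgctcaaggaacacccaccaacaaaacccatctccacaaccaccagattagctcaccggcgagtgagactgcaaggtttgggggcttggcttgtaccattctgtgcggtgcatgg
TGACGT was searched on both strands and was also found in the Chat window, which made 3 of the 7 windows, and it occurred in 6.56% of 27025 mouse promoters cut to the 250 bases before the start. None of the Uchl1, Nos1, S100b and Gfap windows held it. It was 1 of 3 motifs searched on both strands: the E-box CANNTG was in 3 of the 7 windows and in 66.0% of the promoters, and the SOX-type letters ACAANG were in 2 of the 7 and in 36.6%. The Elavl4 window was the first of 4 listed for that gene, cut at the base before its annotated start. A match describes these letters in this window and not a used site.

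Library totals ran from 19638401 to 42917198 counts, and no 2 libraries of a group agreed within sampling noise (the chi-square per gene was at least 42). Transcripts of other tissues and of different colon segments varied among libraries of the same group, and they are given here because the nerve genes were measured in the same RNA. The 7 pancreas genes summed to 389100 CPM (counts scaled to the effective library size) in CT 2, where they took 18.3% of all counts. They summed to 3339 CPM in IM 3 and to at most 514 in the other libraries. That sum includes Cela1, which was at 99.4 CPM or more in every library. By the mean log2 CPM of the 7 genes, IM 1 (4.79) and CT 3 (3.06) came after CT 2 (15.4) and IM 3 (8.12). The rest were at 0.97 or lower. Adipocyte genes summed to 1169 CPM in IM 3 and 231 in IM 1, against at most 122 elsewhere, and T and B cell genes to 376 CPM in IM 3 against at most 44.3 elsewhere. The distal end of the colon is marked by the posterior Hox genes. Their mean log2 CPM over 6 genes was 4.86, 1.58 and 4.97 in IM-HYA, 4.92, 0.54 and -1.17 in IM, and 4.68, 3.36 and 1.93 in CT, so each group held libraries with high and with lower levels. The mean log2 CPM of 10 smooth muscle genes was 9.13, 9.13 and 8.84 in IM-HYA, 9.08, 9.60 and 8.25 in IM, and 9.41, 8.39 and 8.65 in CT.

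Per unit of transcript length, 2 neuronal genes stood far above the other genes of the set. Uchl1 averaged 66.6 ± 34.9 TPM (a level per transcript length and library total, as deposited, SD over 9 libraries) and Vip 32.4 ± 19.7 TPM. Uchl1 was above Vip in 8 of 9 libraries. S100b followed at 3.02 ± 1.19 TPM and was below Vip and above Sox10 in all 9 libraries. Sox10 averaged 2.01 ± 1.08 TPM and exceeded Gfap in 7 libraries. The next genes did not part beyond their spread: Gfap averaged 1.46 ± 0.678 TPM, Ret 1.39 ± 0.69, Elavl4 1.35 ± 0.563 and Nos1 1.21 ± 0.578, and each of Gfap, Ret and Elavl4 was above the next in 4 to 6 of the 9 libraries. Chat came last at 0.075 ± 0.0743 TPM. All genes of the set but Chat had reads in every library, as did all 20 genes of a further list of neuronal genes and 10 of 13 further glial genes, so markers of both cell types were present in each library. The lowest TPM of all 8 tested genes was in CT 2, the library with the most pancreas transcripts. After scaling to CPM, CT 2 was the lowest library for Ret and S100b alone.

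Elavl4 and Uchl1 are general markers of neurons. Elavl4 encodes HuD, an RNA-binding protein of neurons, and lies at chr4:110203737-110351939 on the minus strand of GRCm38.p6. It measured 4.19, 2.97 and 2.42 CPM in IM-HYA libraries 1 to 3, against 2.12, 5.69 and 4.28 CPM in IM libraries 1 to 3 and 4.71, 2.19 and 3.19 CPM in CT libraries 1 to 3. The highest and the lowest library were both in the IM group, 2.69-fold apart, and the 3 groups overlapped. Uchl1 encodes PGP9.5, a ubiquitin hydrolase abundant in neurons (chr5:66676121-66687234, plus strand). Uchl1 was at 40.5, 34.9 and 18.5 CPM in IM-HYA, against 23.7, 74.9 and 91.1 CPM in IM and 68.1, 28.1 and 51.1 CPM in CT. IM 2 and IM 3 held the highest values of all 9 libraries, while IM 1 lay below 2 of the IM-HYA libraries and below every CT library. The log2 fold change of Uchl1 in IM-HYA against IM was -1.02 (SE 0.50, adjusted p = 0.604, edgeR quasi-likelihood test, Benjamini-Hochberg over all genes tested), so the difference was not told apart from the spread. Over 24 alternatives it lay between -1.4 (adjusted p = 0.0627, without IM 1) and -0.36 (with the distal Hox level as a covariate), and it was -0.65 without IM 3. The antisense gene Uchl1os, which overlaps an exon of Uchl1, had 0 reads in every library.

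Vip and Nos1 mark inhibitory neurons, and Vip is also made by neurons that drive secretion. Vip encodes vasoactive intestinal peptide (chr10:5639193-5647617, plus strand). It measured 41.1, 21.8 and 28.9 CPM in IM-HYA, against 26.8, 20.5 and 12.2 CPM in IM and 64.8, 23.6 and 30.7 CPM in CT. CT 1 was the highest library and IM 3 the lowest, 5.30-fold apart, and IM 1 lay above CT 2, so IM and CT overlapped. Vip had the largest negative fold change of the set in IM against CT, at -1.0 on the log2 scale (SE 0.42, unadjusted p = 0.0386, adjusted p = 0.621 in edgeR). Over 24 alternatives it lay between -1.28 (adjusted p = 0.205, without IM 1) and -0.45 (without CT 1), and with the distal Hox level as a covariate it was -0.61. In bulk tissue, fewer cells of a type and less RNA per cell cannot be told apart. Nos1 encodes neuronal nitric oxide synthase, which makes nitric oxide (chr5:117866839-117958840, plus strand). It measured 9.86, 8.49 and 4.35 CPM in IM-HYA, against 7.34, 9.52 and 4.32 CPM in IM and 9.0, 4.71 and 5.31 CPM in CT. Each group held both high and low libraries, within a 2.28-fold range over all 9, the narrowest of the 8 genes. Nos1 shares exon sequence with the antisense model Gm26995, and without a stated strand the reads of the 2 cannot be separated.

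Chat encodes choline acetyltransferase, the enzyme that makes acetylcholine (chr14:32408203-32465909, minus strand), and it was close to the limit of detection. It had 0, 9 and 7 reads in IM-HYA, against 7, 11 and 0 reads in IM and 0, 0 and 6 reads in CT. Reads were absent from at least 1 library of every group, and a count of 0 allows up to 0.0599 CPM in IM-HYA 1, 0.14 in IM 3, 0.0707 in CT 1 and 0.205 in CT 2, for counting error only. Slc18a3, the vesicular acetylcholine transporter, which lies inside the Chat gene without sharing an exon, was read more often. Its counts were 116, 90 and 48 in IM-HYA, against 57, 76 and 6 in IM and 88, 9 and 8 in CT. Slc5a7, the choline transporter of these neurons, had 117, 17 and 33 reads in IM-HYA, against 26, 7 and 0 in IM and 56, 0 and 7 in CT. IM 3 and CT 2 were the libraries with no read of either Chat or Slc5a7. All 9 cholinergic genes of a wider list, which holds both transporters, were tested. In each of the 3 group comparisons 0 of them passed, where at most 0.00543% of all genes tested did.

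Ret encodes the receptor tyrosine kinase for ligands of the GDNF family (chr6:118151748-118197744, minus strand). It measured 8.68, 6.46 and 3.97 CPM in IM-HYA, against 7.39, 7.37 and 4.79 CPM in IM and 8.18, 3.14 and 3.88 CPM in CT. The 3 lowest libraries were CT 2, CT 3 and IM-HYA 3, and the groups overlapped. Its log2 fold change was 0.36 (SE 0.42) in IM against CT and -0.03 (SE 0.42) in IM-HYA against IM. Of 14 tested genes for RET ligands, co-receptors and the endothelin route that also guides these cells, 0 passed in any group comparison. At most 0.00543% of all genes tested passed in any of them. Gfra1, the co-receptor for GDNF, was picked out after its values were seen. It averaged 4.82 ± 0.266 CPM in IM-HYA and 2.82 ± 0.316 CPM in CT (SD, n = 3 each), with no overlap, and had a log2 fold change of 0.77 (SE 0.29, adjusted p = 0.854). Nrtn, the ligand neurturin, was at 8.42, 13.3 and 7.11 CPM in IM-HYA, against 15.98, 18.5 and 24.0 CPM in CT, with a log2 fold change of -1.02 (SE 0.44, adjusted p = 0.854). Non-overlap of that kind was common in this comparison, as 22.1% of all genes tested had it.

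S100b, Gfap and Sox10 mark enteric glia, and S100b and Sox10 are also made by Schwann cells of nerves that enter the gut. S100b encodes a calcium-binding protein (chr10:76253836-76261319, plus strand). It measured 3.65, 2.63 and 2.30 CPM in IM-HYA, against 2.21, 4.98 and 2.70 CPM in IM and 3.89, 2.05 and 3.31 CPM in CT. IM 2 was highest and CT 2 lowest, and the groups overlapped. Gfap encodes the glial intermediate filament protein (chr11:102887336-102897200, minus strand). Gfap was at 1.96, 3.91 and 2.01 CPM in IM-HYA, against 1.6, 3.79 and 2.93 CPM in IM and 2.62, 1.78 and 1.48 CPM in CT. A single IM-HYA library and 2 IM libraries lay above all CT libraries, and the others were within the CT range. Sox10 encodes a transcription factor of neural crest cells and glia (chr15:79154913-79164490, minus strand). Sox10 measured 5.33, 4.05 and 2.47 CPM in IM-HYA, against 3.33, 3.92 and 3.26 CPM in IM and 3.35, 1.43 and 1.37 CPM in CT. CT 2 and CT 3 were below all other libraries, and CT 1 lay inside the range of both cast groups. Sox10 had the largest positive fold changes of the set, 0.93 on the log2 scale (SE 0.43, unadjusted p = 0.0559, adjusted p = 0.854) in IM-HYA against CT and 0.76 (SE 0.43, adjusted p = 0.647) in IM against CT. It kept its sign in both comparisons under 24 alternative settings, with log2 fold changes of 0.66 to 1.5 and 0.51 to 1.32, and passed in none of them. The summed CPM of 4 myelinating Schwann cell genes ran from 357 to 437 in IM-HYA, from 160 to 461 in IM and from 360 to 508 in CT, and none of the 4 was at 0 in any library. Their part in the glial values was not tested.

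**Figure D1:**
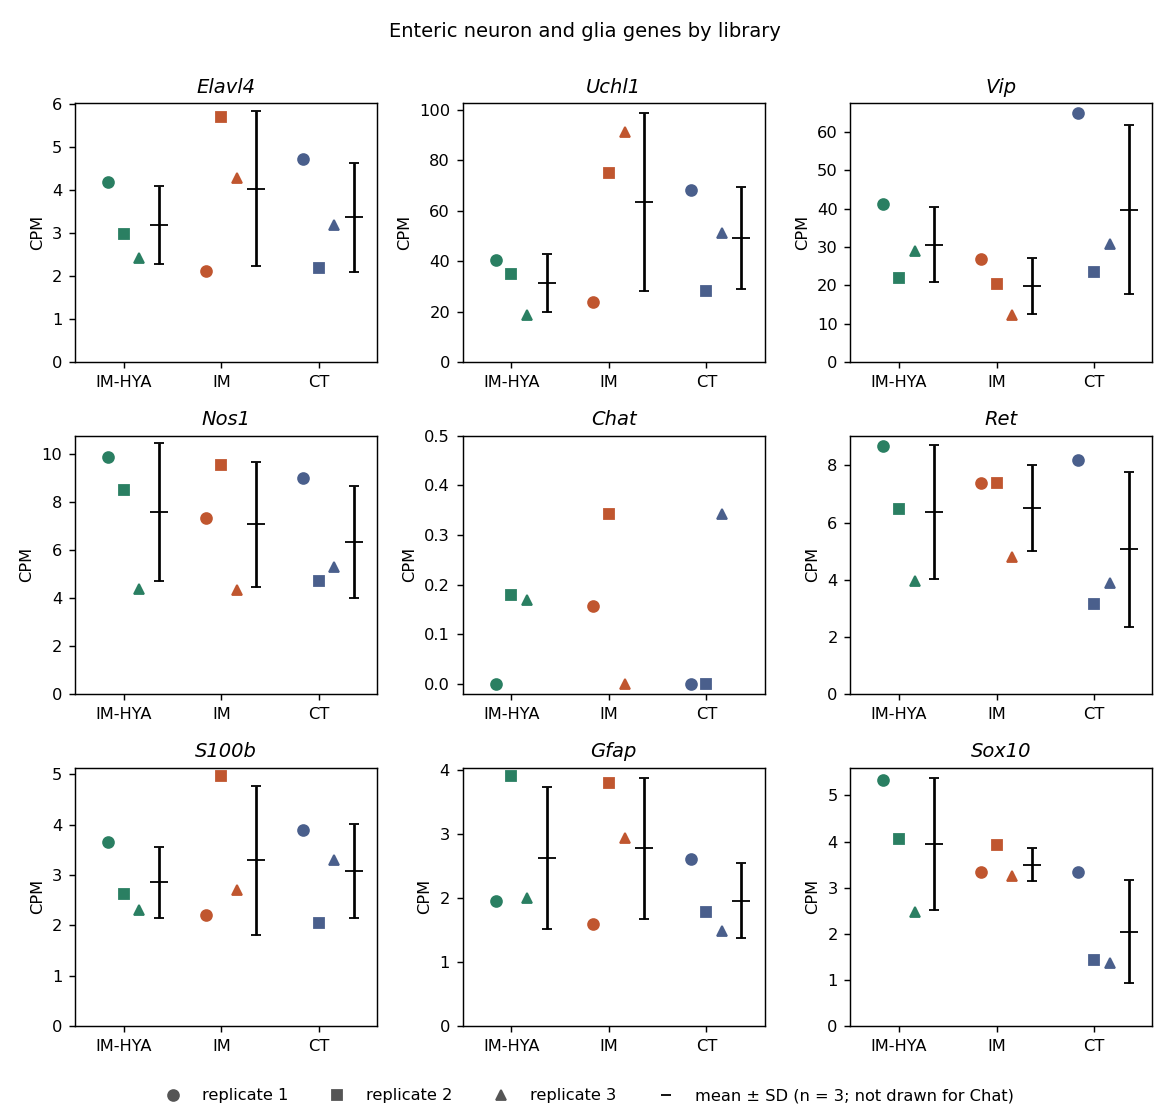
CPM of the 9 enteric neuron and glia genes (y axes, linear) by group (x axes), with a point for each library, its shape giving the replicate number, and bars for the mean ± SD of 3 libraries (not drawn for Chat). The groups overlap in every panel, Uchl1 spreads widest within IM at 23.7 to 91.1 CPM, and Sox10 in CT has 2 of its 3 libraries below the rest.

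None of the 8 tested genes passed the test in any comparison of groups. In IM-HYA against CT, 0 of the 8 passed and 0 had groups that did not overlap, against 0.00543% and 22.1% of all genes tested. In IM-HYA against IM, 0 passed and 0 were free of overlap, against 0% and 9.68% of all genes. In IM against CT, 0 passed and 0 were free of overlap, against 0.00543% and 9.02%. At an unadjusted p under 0.05 the set had 0 genes in IM-HYA against CT, 0 in IM-HYA against IM and 1 in IM against CT, which was Vip, while 5.20%, 7.66% and 7.94% of all genes had such a p in these comparisons. DESeq2 called none of the 8 in any of them, against 0.0822% of the genes it adjusted in IM-HYA against CT, 0.273% in IM-HYA against IM and 0.345% in IM against CT. Adjusted p-values of the 8 genes were 0.604 or higher, and standard errors of the log2 fold changes ran from 0.40 to 0.50. Without CT 2 and IM 3, the libraries with the most transcripts of other tissues, 0 of the 8 passed. In that setting Vip in IM against CT was at -1.01, Uchl1 in IM-HYA against IM at -0.63 and Sox10 in IM against CT at 0.57. The 3 comparisons share their groups and are not independent. Among the 5 tested neuronal genes the median log2 fold change was -0.08 in IM-HYA against CT, -0.03 in IM-HYA against IM and 0.25 in IM against CT, beside 0.01, -0.01 and 0.04 over all genes tested. Among the 3 glial genes it was 0.42 in IM-HYA against CT, -0.08 in IM-HYA against IM and 0.49 in IM against CT.

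**Figure D2:**
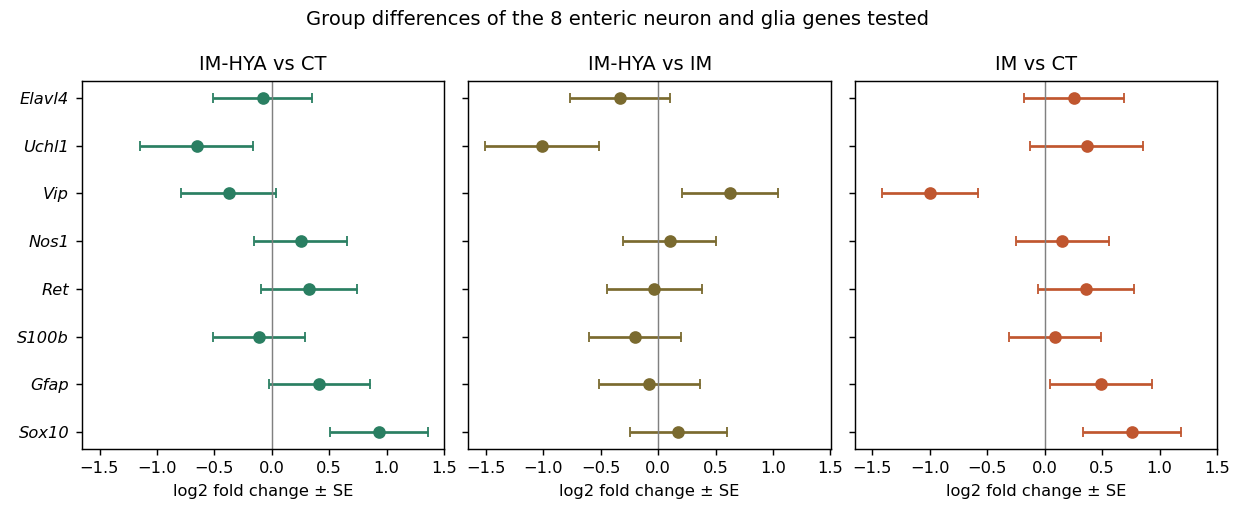
Log2 fold changes with their standard errors (x axes) of the 8 tested genes (rows) in IM-HYA against CT, IM-HYA against IM and IM against CT, from the edgeR fit to 9 libraries. Sox10 lies farthest to the right against CT at 0.93 and 0.76, and Vip at -1.0 in IM against CT and Uchl1 at -1.02 in IM-HYA against IM lie farthest to the left.

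A ratio of 2 of these genes within a library does not move with the amount of nerve tissue in the piece, as long as both scale with it. The ratio of Vip to Nos1 in TPM was 26.2, 16.1 and 41.9 in IM-HYA, against 23.0, 13.4 and 17.8 in IM and 45.4, 31.2 and 36.6 in CT. Every IM library was below every CT library, and IM-HYA overlapped both. Among single genes tested, 9.02% had no overlap between IM and CT. IM 2 and IM 3 had the lowest distal Hox levels of the 9 libraries (0.54 and -1.17), and the ratio was not adjusted for that level. The mean log2 ratio was 4.70 ± 0.69 in IM-HYA, 4.14 ± 0.39 in IM and 5.22 ± 0.27 in CT (SD, n = 3 each). An exact permutation test over the 3 groups gave p = 0.1 (all assignments of the 9 libraries, adjusted p = 0.2 over 2 ratios, smallest possible 0.00357). For IM against CT alone the log2 difference was -1.08 with a two-sided exact permutation p of 0.1, the smallest that 3 libraries against 3 allow. Leaving out single libraries gave an exact permutation p over the 3 groups from 0.0357 (without IM-HYA 2) to 0.229 (without CT 1). The ratio of S100b to Elavl4, glia to neurons, overlapped between the groups, at 2.24, 2.24 and 2.44 in IM-HYA, against 2.67, 2.25 and 1.61 in IM and 2.11, 2.40 and 2.65 in CT. Its exact permutation test gave p = 0.843, and IM 3 was the lowest library.

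**Figure D3:**
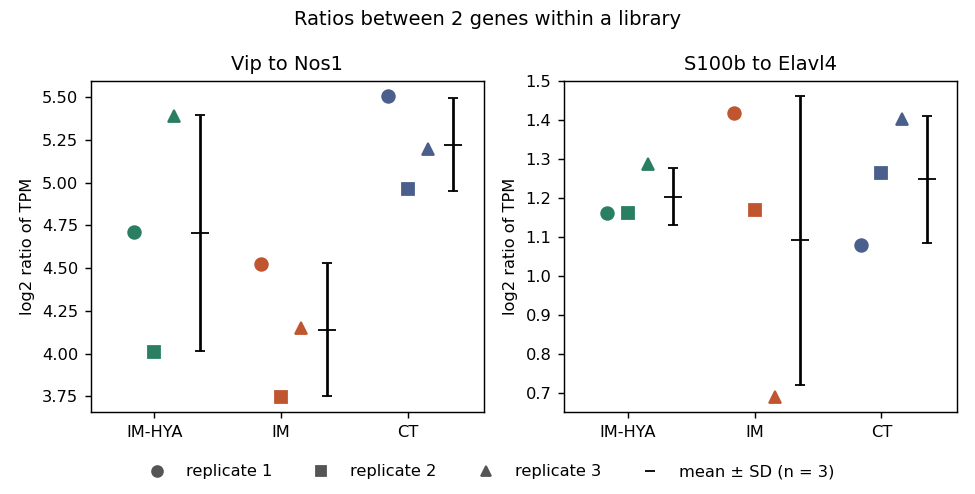
Log2 ratio of TPM (y axes) for Vip to Nos1 and S100b to Elavl4 by group (x axes), with a point for each library and bars for the mean ± SD of 3 libraries. For Vip to Nos1 the IM libraries lie below all CT libraries and IM-HYA reaches into both ranges, and for S100b to Elavl4 the groups overlap.

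All 28 pairs of the 8 tested genes were compared across the 9 libraries on log2 CPM with exact permutation tests. By Pearson r 4 of the 28 passed, 2 of these 4 also by Spearman rho, and Vip was in none of them. The lowest r of these 4 pairs was 0.87, and 14.3% of the 28 pairs and 1.67% of all pairs of the 18414 genes tested reached it. That cut was taken from the pairs that passed, so the 2 shares describe the values and do not test the set. Elavl4 and S100b were the closest, at Pearson r = 0.91 (exact permutation p = 0.000953, adjusted p = 0.0133 over 28 pairs) and Spearman rho = 0.93 (exact permutation p = 0.00075, adjusted p = 0.021), with r = 0.85 after leaving out the 2 libraries farthest from the median of Elavl4. The first of these is a neuronal gene and the other a glial gene. Elavl4 and Uchl1, both neuronal, had r = 0.87 (exact permutation p = 0.00381, adjusted p = 0.0302) and rho = 0.88 (exact permutation p = 0.00308, adjusted p = 0.0431), and r = 0.83 without the 2 farthest. Nos1 and Ret had r = 0.90 (exact permutation p = 0.00431, adjusted p = 0.0302), and r = 0.96 without the 2 farthest, but their rho of 0.77 did not pass (exact permutation p = 0.0214, adjusted p = 0.119). Likewise Ret and Sox10 had r = 0.87 (exact permutation p = 0.000915, adjusted p = 0.0133), r = 0.76 without the 2 farthest, and a rho of 0.83 that did not pass (exact permutation p = 0.00827, adjusted p = 0.0772). Vip had r between -0.32 and 0.47 with the other 7 genes, and the lowest of these was with Gfap. All values share their library's RNA, depth and scaling, so tissue content is common to each pair.

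The labels give no position along the colon, so the mean log2 CPM of the distal Hox genes stood in for it as a continuous measure, and each gene's slope on it was tested within groups. Vip had the steepest positive slope of the set, 0.21 log2 units per log2 unit of Hox level (SE 0.065, unadjusted p = 0.011), and its adjusted p of 0.0585 missed the threshold of 0.05. Within IM, Vip measured 26.8 CPM in IM 1, which had the highest Hox level of the group, 20.5 in IM 2, and 12.2 in IM 3, which had the lowest and 0 CPM of Hoxd13. IM-HYA 2, with the lowest Hox level of its group, also had the lowest Vip, whereas CT 2 had less Vip than CT 3, whose Hox level was lower. Uchl1 had a slope of -0.20 (SE 0.10, adjusted p = 0.22), and Gfap had -0.15 (SE 0.089, adjusted p = 0.274). Slopes of the other 5 genes lay between -0.08 and 0.10. In all, 0 of the 8 genes passed, against 16.3% of all genes tested, and 1 of the 8 had an unadjusted p under 0.05, against 34.0% of all genes. The Vip slope was positive under all 24 alternatives, at 0.06 to 0.29, and it passed in 6 of them, with adjusted p from 0.016 to 0.708. The calls across the table rested on IM 1: without it 0 genes passed, and the Vip slope was 0.29 with an adjusted p of 0.43.

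**Figure D4:**
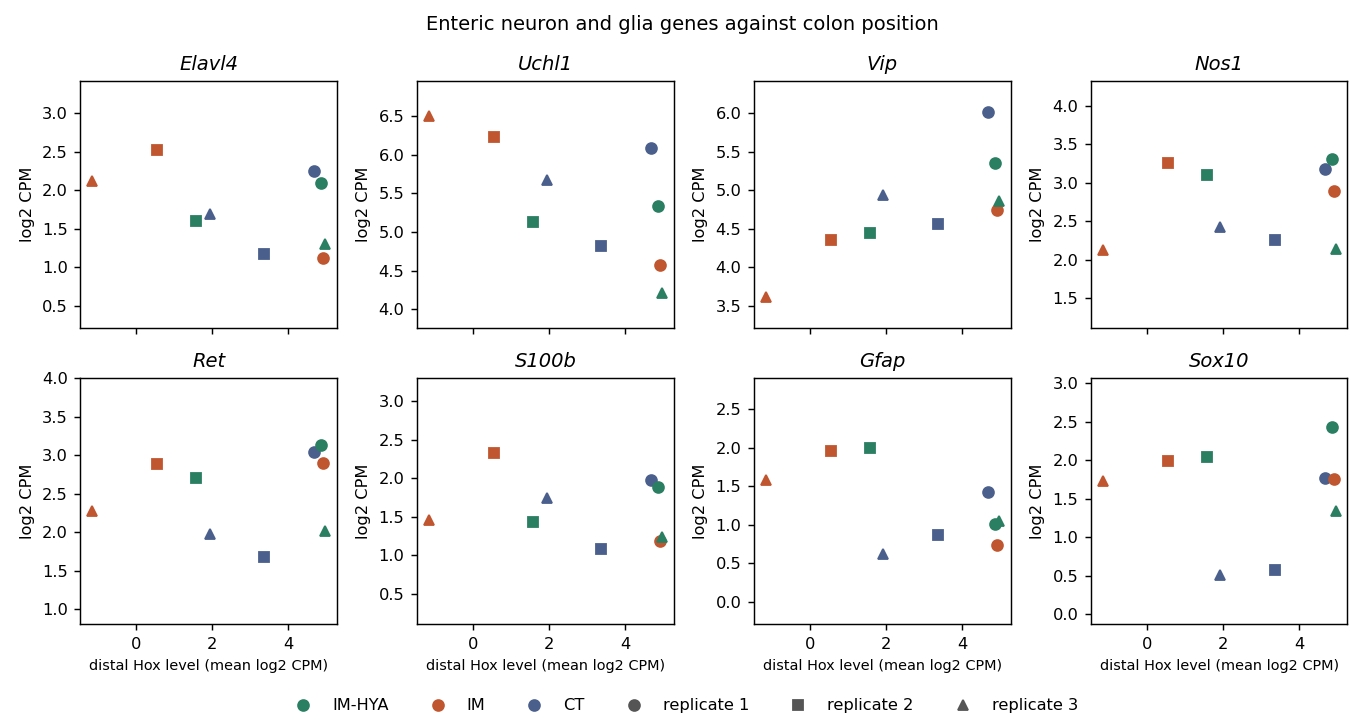
Log2 CPM of the 8 tested genes (y axes, each spanning the same number of log2 units) against the distal Hox level in mean log2 CPM (x axes), 1 point per library, colored by group and shaped by replicate number. The fitted slopes were 0.21 for Vip (adjusted p = 0.0585) and -0.20 for Uchl1 (adjusted p = 0.22) in edgeR, and none of the 8 passed.

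Wider lists of genes tied to the nerve supply were read in the same way. The colon cells that gave their reads were not told apart, so a slope below need not be one of nerve cells. Of 91 genes in 8 lists (other neuronal and glial genes, cholinergic, nitric oxide, VIP and PACAP, other peptides, monoamines, RET and endothelin signalling), 86 were tested. In each of the 3 group comparisons 0 of the 86 passed, where at most 0.00543% of all genes tested did. On the Hox level 15 of the 86 passed, 17.4% beside 16.3% of all genes, 10 of them higher with the Hox level and 5 lower, beside 8.43% and 7.88% of all genes. Vipr1, the VIP receptor, was 1 of the 10: it measured 222, 176 and 241 CPM in IM-HYA, against 231, 130 and 67.5 CPM in IM and 167, 170 and 158 CPM in CT. Its slope of 0.20 (SE 0.046, adjusted p = 0.0232 in edgeR) was close in size to that of Vip. Monoamine genes gave 4 of the 10. They were the serotonin transporter Slc6a4 (slope 0.47, adjusted p = 0.00389 in edgeR), the decarboxylase Ddc (0.17), Th (1.28) and Slc6a2 (1.22). Th and Slc6a2, the synthetic enzyme and the transporter of noradrenaline neurons, were both at 0 in IM 2, IM 3 and CT 3. Th was close to the limit of detection, with 65 reads in IM 1, 34 in IM-HYA 1, 13 in CT 1 and 4 or fewer in every other library. Also higher with the Hox level were Gap43 (0.30), a protein of growing axons, the neurotrophin receptor Ngfr (0.33), the muscarinic receptor Chrm2 (0.75), neuropeptide Y (Npy, 0.73) and Gucy1a1 (0.25), a subunit of the nitric oxide receptor. Lower with it were the nicotinic receptor subunit Chrnb4 (-0.49), the Nos1 adaptor Nos1ap (-0.50), calretinin (Calb2, -0.29), neurturin (Nrtn, -0.27) and the endothelin-converting enzyme Ece1 (-0.21). Nos1ap reached 15.4 CPM in IM 3, against 3.82 or less in the other libraries. Without IM 1, none of these slopes passed.

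Neurons and glia lie in and around the muscle coat, so the genes were also set against the smooth muscle level of each library, a comparison added after the data were seen. No slope passed the test. Nos1 had 0.98 log2 units per log2 unit of muscle level (SE 0.28, unadjusted p = 0.00699), Vip 0.96 (SE 0.31, unadjusted p = 0.0148) and Ret 0.92 (SE 0.31, unadjusted p = 0.0178). The slope was 0.70 for Sox10, 0.67 for S100b, 0.52 for Elavl4, 0.40 for Gfap and 0.21 for Uchl1. The median was 0.92 over the 5 neuronal genes and 0.67 over the 3 glial genes, beside 0.01 over all genes tested. Wider lists had lower medians, 0.51 over 20 other neuronal genes and 0.35 over 12 other glial genes. Over all 86 tested genes of the 8 wider lists the median was 0.43. With adjusted p-values of 0.582 or higher 0 of the 8 passed in edgeR, as did 0% of all genes, of which 8.29% had an unadjusted p under 0.05. DESeq2 called 151 genes of the table on this slope and none of the 8. Over 19 to 21 alternatives a gene the slope lay between -0.08 and 1.67 for Uchl1 and between 0.20 and 1.55 for Gfap, and it was above 0 throughout for the other 6. Genes of other cell types had slopes on the same measure as well: 5 of 5 epithelium genes were above 0 with a median of 0.45, whereas the median was -2.22 for T and B cell genes, -1.68 for adipocyte genes and -13.6 for pancreas genes. The lowest muscle levels were those of IM 3 and CT 2, the libraries with the most transcripts of other tissues. Leaving out IM 3 and CT 2 together was among the alternatives above, and none of the 8 genes passed in any of those. The part of those transcripts in the slopes was not tested otherwise.

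Set relative to the muscle level, Nos1 became the steadiest gene of the set. The SD of its log2 CPM over the 9 libraries was 0.50, and after subtracting the muscle level it was 0.24, with values between -6.70 and -5.82. For Ret the SD was 0.53 before and 0.32 after, for Sox10 0.65 and 0.52, for Vip 0.67 and 0.59, and for S100b 0.42 and 0.36. The SD of Uchl1 was larger after subtraction, 0.87 beside 0.79, and those of Elavl4 and Gfap were 0.51 before and 0.50 and 0.53 after. Over all genes tested the median SD was 0.49 before and 0.65 after, and 17.4% of genes had a smaller SD after.

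**Figure D5:**
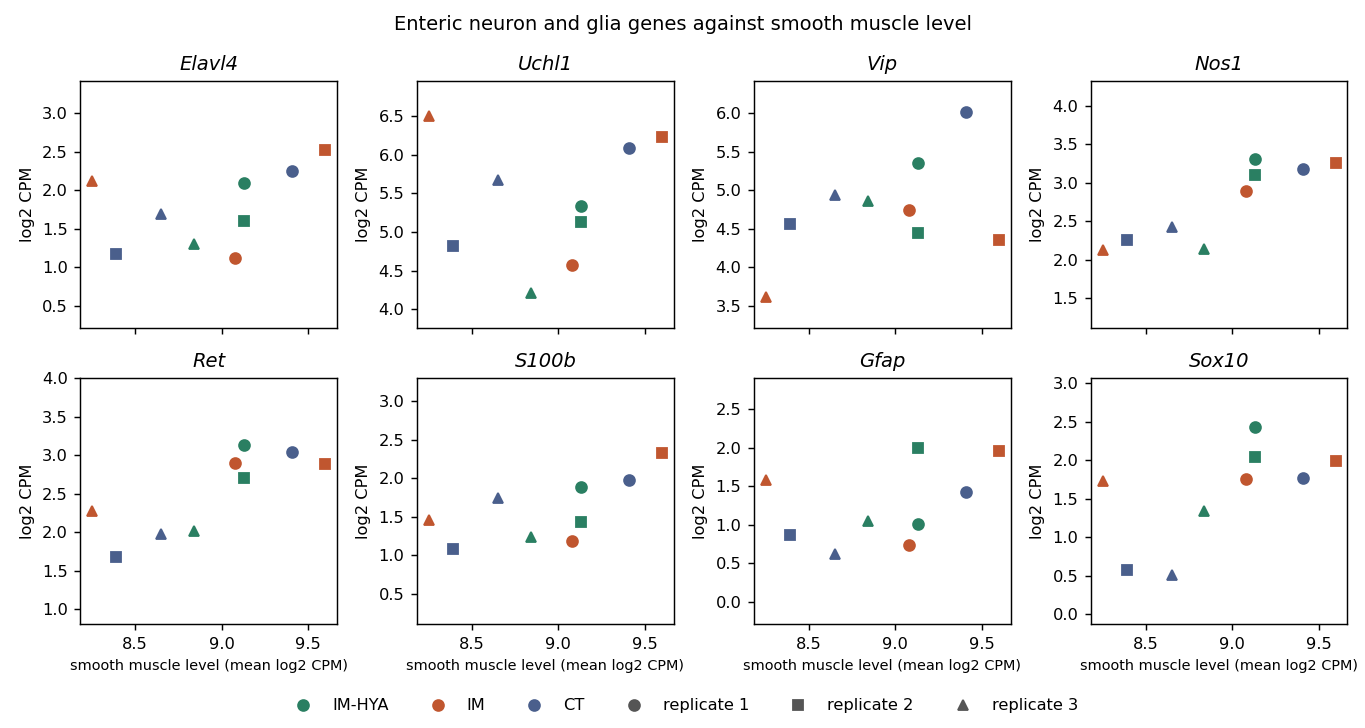
Log2 CPM of the 8 tested genes (y axes, each spanning the same number of log2 units) against the mean log2 CPM of 10 smooth muscle genes (x axes), 1 point per library, colored by group and shaped by replicate number. The fitted slopes of 0.98 for Nos1 and 0.92 for Ret did not pass, and Uchl1 is high both in IM 3, which has the lowest muscle level, and in IM 2, which has the highest.

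The genes most like the set across the libraries were sought among the 18414 tested genes, as a description over 9 libraries that share depth and tissue content. The genes of the set and unnamed gene models were left out of the ranking. For the 5 neuronal genes the closest were Syt4 (r = 0.948), Syt1 (0.937), Prune2 (0.936), Slc7a14 (0.921), Phox2a (0.917), Dact3 (0.916), Ndrg4 (0.907) and Kcnq3 (0.902). Syt1 and Syt4 encode synaptotagmins, proteins of secretory vesicles, Phox2a a transcription factor of autonomic neurons, and Kcnq3 a potassium channel. For the 3 glial genes they were Usp13 (r = 0.945), Ppp1r12c (0.943), Ckm (0.932), Nkd2 (0.926), Akap6 (0.92), Pcdhga6 (0.898), Gnb3 (0.889) and Ntsr1 (0.887). Ckm encodes the muscle creatine kinase and Ntsr1 a receptor for neurotensin. Of these 16 genes, Syt1 and Phox2a were on the list of other neuronal genes and none was on the list of other glial genes.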

How the data were processed

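Total RNA from colon was purified on RNeasy columns and made into Illumina libraries, per the labels' protocols. The tools listed were HISAT2 2.1.0, StringTie 2.1.3b, Trimmomatic and bcl2fastq 2.20.0, with the build GRCm38 (mm10), per the submitters' processing notes. Neither strand nor annotation release is given in the sources used here. For each of 45777 genes the authors deposited whole-number counts, FPKM and TPM per library. The deposited counts entered the main tests, the FPKM values deposited by the authors entered alternatives, and the deposited TPM gave levels between genes and ratios.

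Genes passing filterByExpr by group (minimum count 10, minimum total 15) were fitted in edgeR 4.0.16 (R 4.3.3; TMM scaling, robust quasi-likelihood, group as the only term, all 9 libraries, 6 residual degrees of freedom, common biological coefficient of variation 0.469). Benjamini-Hochberg adjustment ran over all 18414 genes at a threshold of 0.05. The median standard error in IM against CT was 0.37. CPM used the scaled library size, and log2 CPM a prior count of 2. Slopes on the distal Hox level (6 genes) and on the smooth muscle level (10 genes) had group as a further term. Ratios and gene pairs were tested by exact permutation. The tests were tried on simulated data. Figures used matplotlib 3.10.9 in Python 3.11.15.

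The genes and lists were chosen with earlier results of these data known. The 9 genes were always named. From wider lists, genes passing a test were named, and for likeness the 8 with the highest r after leaving out the set and unnamed gene models. Alternatives were scaling by RLE or by the upper quartile, a filter of 1 CPM in 3 libraries or none, DESeq2 1.42.0, limma-voom with quality weights, limma 3.58.1 on log2(FPKM + 1) and log2(FPKM + 0.1), protein-coding genes, covariates, only the groups compared, a replicate block and left-out libraries. The smooth muscle slopes and the gene pairs were added after the data were seen. A planned ratio of Chat to Nos1 could not be made, since Chat had 0 reads in 4 libraries.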

Additional observations from a re-analysis of the deposited data

How the results depend on the processing

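With 3 libraries a group and a coefficient of variation of 0.469, fold changes of the size seen here could not be told from the spread. The comparisons and slopes of the 8 tested genes kept their side of the threshold under every alternative run except the Vip slope on colon position, called in 6 of 24 (DESeq2 adjusted p = 0.0224, log2(FPKM + 1) 0.0336, log2(FPKM + 0.1) 0.0392, without CT 2 0.0321, without IM 2 0.0458, and no group term 0.016). Of 188 values per comparison, 16 in IM-HYA vs CT, 23 in IM-HYA vs IM, 12 in IM vs CT and 14 of the colon position slope changed sign without being called. The causes of these shifts were not tested.

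The main counts of genes past the threshold were 1 in IM-HYA vs CT, 0 in IM-HYA vs IM, 1 in IM vs CT, 1 for any difference among 3 groups and 3003 for the colon position slope. DESeq2 gave 15, 46, 63, 91 and 4531 in that order. With log2(FPKM + 1) the counts were 7 in IM-HYA vs CT, 1 in IM-HYA vs IM and 2 for any difference. With log2(FPKM + 0.1) they were 3, 1, 2, 4 and 1740. With log2(FPKM + 1) and no filter they were 0 in IM-HYA vs CT, 0 in IM vs CT, 0 for any difference and 123 for position. Protein-coding genes alone gave 0 in IM-HYA vs CT, 0 in IM vs CT and 0 for any difference. Without CT 2 and IM 3 together there was 1 in IM-HYA vs IM, 0 in IM vs CT and 2 for any difference. With no group term 5316 genes passed on position. Leaving out single libraries gave 1 to 2 in IM-HYA vs CT and 1 to 2 in IM vs CT (2 in both without CT 1, and 2 in IM vs CT without IM 2), 0 to 871 in IM-HYA vs IM (871 without IM 1, 1 without IM 2), 1 to 2 for any difference (2 without IM 1 or IM 2), and 0 to 3400 for position (0 without IM 1, 1543 without IM 3, 1707 without IM-HYA 1, 1620 without IM-HYA 3). For the ratio of Vip to Nos1 the exact permutation p ran from 0.0357 (without IM-HYA 2) to 0.229, and for S100b to Elavl4 from 0.264 to 0.925.

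Whether the replicate numbers pair the libraries was not settled. Deviations of same-numbered libraries had r from -0.27 to 0.36, over 0.1 in 5 of 9 pairs. Of 9 libraries, 4 correlated best with a library of their own number. All pairs of libraries numbered 1 had r of 0.25 to 0.31. Those libraries also had similar distal Hox levels (4.86 in IM-HYA, 4.92 in IM and 4.68 in CT). Replicate number and Hox level therefore partly go together. With a replicate block the counts were 1 in IM-HYA vs CT, 0 in IM-HYA vs IM, 1 in IM vs CT and 11 for position, and the Vip slope was 0.06 (adjusted p = 0.708).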

Other observations

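Some marker genes of other cells of the gut wall passed on the slope against the distal Hox level. Of 3 genes of interstitial cells of Cajal, the pacemaker cells beside the enteric neurons, 2 passed in opposite directions: Ano1, a chloride channel, was higher with the Hox level (slope 0.45) and the receptor Kit was lower (-0.24). Of 9 enteroendocrine genes 3 were lower: Cck (-0.79), Sct (-0.78) and Chga (-0.30). Of 5 tuft cell genes 1 passed, Dclk1 (-0.22), and of 5 epithelium genes 0 passed. These slopes are in log2 units per log2 unit of distal Hox level, each slope given with an adjusted p under 0.05 in edgeR, beside 16.3% of all genes tested, and none passed without IM 1.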
